A study of Mus musculus with 14 samples.

Results

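The genes described here encode the proteins of the cytosolic ribosome, measured in mouse hepatocytes with and without the splicing factor SRSF1. A gene was taken when its symbol had the form of a large- or small-subunit ribosomal protein (Rpl, Rps, Rpsa, Rplp0 to Rplp2) and at least 1 of its transcripts was annotated as protein coding. This gave 76 of the 54446 genes measured, 46 of the large subunit and 30 of the small subunit, on 19 chromosomes. All 76 had a mean of at least 1 TPM, the minimum for testing. TPM, the unit of the deposited table, is a transcript's share of its library, corrected for transcript length, so that levels of different genes can be compared on this scale.

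RNA came from hepatocytes purified from C57BL/6 mice and was sequenced as stranded, polyA-selected libraries. In the developmental model, 2 hepatocyte knockout libraries (HKO, genotype srsf1f/f;albcre+/-) were compared with 2 libraries of albcre+/- controls at postnatal day 10 (P10), and again with 2 and 2 at 1 month. In the acute model all animals were srsf1f/f and received an AAV8 vector with the TBG promoter, which is active in hepatocytes, at 8 weeks. The vector carried GFP in 3 control libraries and iCre in 3 knockout libraries (acute HKO), sampled 2 weeks later at 10 weeks of age. The developmental controls do not carry the floxed allele, so genotype and knockout cannot be told apart at P10 and 1 month. Only the acute knockouts received iCre, and effects of iCre and of the knockout cannot be told apart either. Nothing in the labels ties the replicates to separate animals, and p-values then measure only the spread between these libraries.

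A ribosome is built from ribosomal RNA and one copy of most of its proteins, except that the acidic stalk proteins Rplp1 and Rplp2 are present as dimers. Ribosomal protein mRNAs are abundant in all growing cells, and they begin with a run of pyrimidines (the terminal oligopyrimidine tract) through which mTOR signalling sets how actively they are translated. The mouse genome also carries many processed copies of these mRNAs, reverse transcribed and inserted elsewhere, most of them taken to be pseudogenes.

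Sequences around the start of the mRNA were searched for shared letters. In the RefSeq promoter table for GRCm38.p6, 56 members had an entry, with 66 start sites. The letters CTTTC occurred on the sense strand within the 40 bases around the start in 18 of these 66 windows (27.3%), against 5.49% of 32851 windows of all genes. The letters CCGGAAG, on either strand of 300 bases, were present in 24 of the 66 (36.4%) against 8.86%. Most windows lacked CTTTC, and most lacked CCGGAAG. Both motifs were chosen after the sequences had been viewed, the matches are not shown to be sites in use, and no other motif was searched. The 4 windows below are shown because CTTTC, in capitals, lies at or just after the annotated start, which is base 16 of each 30-base window. They lie at chr11:114668565-114668594 (Rpl38, plus strand), chr7:141447636-141447665 (Rplp2, plus), chr7:4792950-4792979 (Rpl28, plus) and chr16:33056467-33056496 (Rpl35a, plus).
Rpl38: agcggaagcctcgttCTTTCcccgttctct
Rplp2: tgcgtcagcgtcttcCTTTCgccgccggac
Rpl28: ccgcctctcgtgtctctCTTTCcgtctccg
Rpl35a: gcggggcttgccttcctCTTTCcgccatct

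The second set of sequences shows how little separates a member from its copies. Rpl29 (chr9:106429454-106431568, plus strand, GRCm38) encodes a small basic protein of the large subunit. Its coding sequence of 480 bases differs at 3 positions from each of the processed pseudogenes Gm13841 (chr5:115801677-115802159, minus strand) and Gm8210 (chr1:43189156-43189638, plus strand). Rps13 (chr7:116331505-116334195, minus strand) differs at 2 of 453 coding bases from Rps13-ps1 (chr8:87047689-87048226, plus strand). Rps7 (chr12:28630854-28635953, minus strand) differs at 3 of 582 from Gm6472 (chrX:152909505-152910155, minus strand). Positions count from 1 at the first base of the coding sequence, the gene's base comes first, and the differing base is in capitals: C72A for Rpl29 against either copy, T411C and A429G for Rps13, and T26G for Rps7.
Rpl29: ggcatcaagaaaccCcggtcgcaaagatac
Gm13841: ggcatcaagaaaccAcggtcgcaaagatac
Rps13: cgggtgctcccaccTaattggaaatatgag
Rps13-ps1: cgggtgctcccaccCaattggaaatatgag
Rps13: tggaaatatgagtcAtccacagcctctgct
Rps13-ps1: tggaaatatgagtcGtccacagcctctgct
Rps7: gagcgccaagatcgTgaagcccaatggcga
Gm6472: gagcgccaagatcgGgaagcccaatggcga
The other differences were C300T and T423C between Rpl29 and each copy, and G48A and G123T between Rps7 and Gm6472. Reads of the coding sequence that cover none of these bases match gene and copy equally, so the split of TPM between them is uncertain.

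Libraries of the same group correlated at 0.976 to 0.994 across genes and at 0.841 to 0.997 across the 76 members, on the log2 scale. Srsf1 itself was lower in each knockout library than in each control library of its comparison, with 23.4 and 29.98 TPM against 43.6 and 46.4 TPM in the pups, 7.74 and 9.17 against 20.01 and 23.2 at 1 month, and 3.69 to 5.34 against 16.5 to 32.3 in adults. Mitochondrially encoded RNA took 26% to 33.9% of TPM in the P10 and control 1-month libraries, 50.6% and 35.8% in HKO 1-month replicates 1 and 2, 11.8% to 16.1% with GFP and 33.5% to 42.9% in the acute HKO. HKO P10 replicate 2 held 74.7 TPM of Xist while the other 13 libraries held at most 0.0147 TPM. The 10 hepatocyte markers were present in every library, with summed levels of 32010 TPM or more, and their differences between groups are given with each comparison. Depth is unknown because TPM do not keep it.

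On the deposited TPM the levels of the members differed widely. Averaged over the 14 libraries, Rplp1, a stalk protein, was highest at 468.3 TPM, followed by the small-subunit genes Rps24 at 459.7 TPM and Rps29 at 398.1 TPM. Rplp1 ranged from 252 to 1006 TPM over single libraries, Rps24 from 145 to 1174 TPM and Rps29 from 200 to 798 TPM, so the levels of these neighbours in the order overlapped. The lowest means were 13.4 TPM for Rpl5, which binds 5S ribosomal RNA, 9.39 TPM for Rps12 and 7.46 TPM for Rpl12. Within a library the highest member exceeded the lowest by between 64.8-fold and 345.7-fold. Large-subunit genes held 57.3% to 59.6% of the members' TPM in every library.

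Each of the 3 lowest members had most of its TPM on near-identical copies. Copies were taken as annotated transcripts at least 95% identical over at least 80% of a member's coding sequence, a search added after the data had been seen. There were 528 such copy genes for 70 members, of which 33 reached a mean of 1 TPM, over 29 members. Copies held 14.9% to 20.3% of the TPM of members and copies together. For 14 members the copies held more TPM than the gene: 97.25% lay on copies for Rpl12 (chiefly Gm10275), 97.08% for Rps12 (Rps12-ps3), 93.98% for Rpl5 (Gm15500), 84.67% for Rps27 (Rps27rt) and 70.78% for Rpl10 (Rpl10-ps3). Adding the copies brought Rpl5 to a mean of 223 TPM, Rps12 to 322 TPM and Rpl12 to 272 TPM. The spread between the highest and the lowest member within a library then fell to between 4.87-fold and 8.03-fold, and no member remained under 30 TPM in any library, where 5 to 10 had been.

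Assignment moved between libraries as well, and for 4 members it differed between the genotypes without overlap. The share on copies did not overlap between the 4 libraries of albcre+/- controls and the 10 libraries from srsf1f/f animals for 4 of 29 members, all higher in the floxed animals, and overlapped for 25. Rps13, a small-subunit protein, had 0.1% to 1.8% on copies in the controls and 64.3% to 97.3% in the floxed animals. For Rps7 the shares were 9.8% to 14.2% and 58.6% to 84.0%, for Rpl29 0.4% to 1.4% and 37.8% to 93.9%, and for Rps9 0.0% and 0.9% to 3.2%. The 2 copies of Rpl29 carried equal TPM in each library, were listed at 0 in all 4 controls, and held 12.4 to 90.5 TPM each in the 10 floxed libraries. The GFP libraries were on the high side with the knockouts. They differ from the albcre+/- controls in age and vector as well as genotype, and these cannot be told apart. The cause was not tested.

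For Rpl29 the gene measured 192 and 203 TPM in the P10 controls against 22.7 and 21.4 TPM in the P10 HKO, while its copies measured 2.69 and 2.37 TPM against 183 and 174 TPM. Gene and copies together came to 194 and 205 TPM in controls, and in the HKO libraries 205 and 195 TPM, values that overlap. At 1 month the gene measured 113 and 132 TPM in controls and 37.7 and 64.5 TPM in HKO, and the sums were 114 and 133 TPM against 62.9 and 104 TPM. In the acute model the gene was low in both arms, at 5.08, 5.85 and 6.73 TPM with GFP and 3.97, 3.82 and 3.18 TPM in the acute HKO. The sums there were 83.4, 91.2 and 98.4 TPM against 64.3, 59.3 and 48.1 TPM, without overlap.

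Rps13 behaved the same way with a larger spread. Its gene measured 217 and 220.3 TPM in the P10 controls, 124 and 13.8 TPM in the P10 HKO libraries, 131 and 151 TPM in the 1-month controls and 30.3 and 39.3 TPM in the 1-month HKO. Gene and Rps13-ps1 summed to 217 and 221 TPM in the P10 controls and to 346 and 408 TPM in the P10 HKO, so that the lower group on the gene alone was the higher group on the sum. Rps27, a zinc-binding small-subunit protein, switched within groups: its gene held 394 TPM in GFP replicate 3 and 287 TPM in acute HKO replicate 1, and 1.52 to 2.66 TPM in the other 4 acute libraries. With Rps27rt and other copies added, Rps27 measured 297, 335 and 401 TPM in the GFP libraries and 294, 231 and 214 TPM in the acute HKO, which do not overlap.

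**Figure D1:**
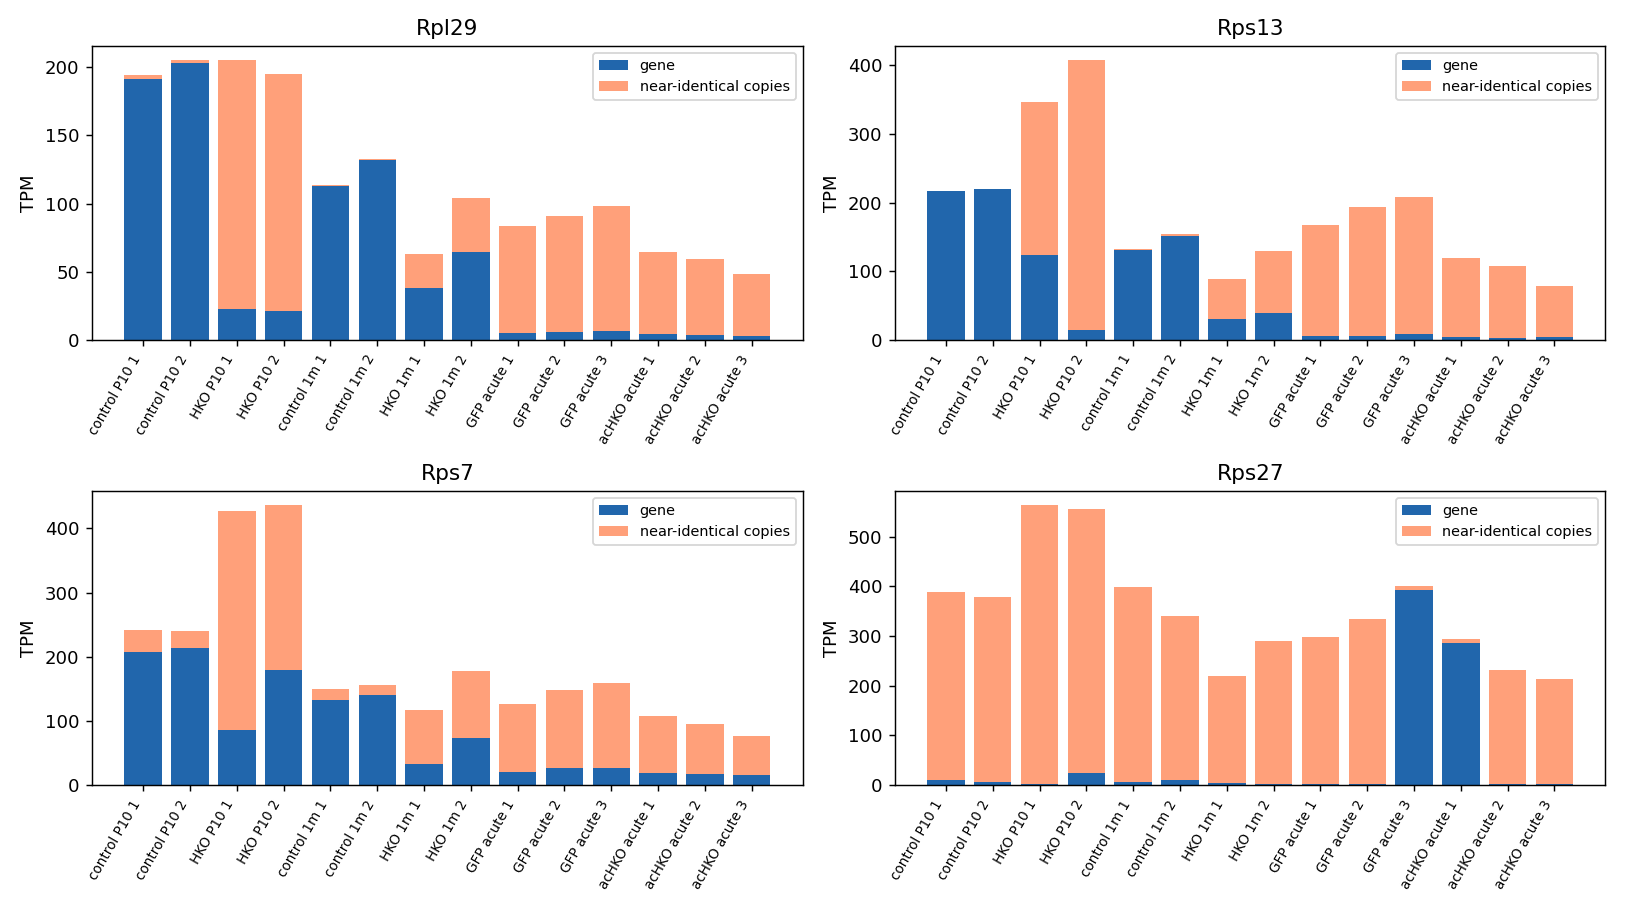
TPM of Rpl29, Rps13, Rps7 and Rps27 in each of the 14 libraries, split into the gene (blue) and its near-identical copies (orange), each bar a library. Rpl29, Rps13 and Rps7 lie mainly on the gene in the 4 albcre+/- control libraries and largely on copies in the acute libraries, while Rps27 is on its gene mainly in GFP replicate 3 and acute HKO replicate 1.

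The first comparison asked what the knockout changes in hepatocytes of P10 pups, and ribosomal protein RNA was higher there. The 76 genes summed to 19388 and 19709 TPM in controls and to 27533 and 29821 TPM with the knockout. The HKO mean was 146.7% ± 8.5 of the control mean (n = 2 each), and the libraries did not overlap. The ± on this and later percentages combines the relative SDs of both groups. With mitochondrially encoded genes left out of the total it was 148.6% ± 19.3. When the libraries were scaled so that the typical gene was equal (median-of-ratios scaling) it was 120.4% ± 13.2, still without overlap. These are shares of RNA, and in bulk samples fewer cells of a type and less RNA per cell cannot be told apart. Without HKO P10 replicate 2, the library with Xist, the value was 140.8%.

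Gene by gene, 7 members rose and 2 fell at P10 on the deposited TPM (limma, adjusted p over all genes under 0.05). The background was 10.8% of 11736 genes higher and 1.87% lower, so the share of members called higher is near that of all genes. With an unadjusted p under 0.05 as the limit, 42 members were higher and 2 lower. The share of all genes at this unadjusted limit was not counted, here or below. Because TPM are shares of a total, the median gene itself had a log2 fold change of 0.25 in this comparison (-0.001 at 1 month, -0.36 for the acute knockout), and single values below are relative to it. The SE and limma p-values printed beside them belong to the log2 fold change before this shift, tested against 0. They do not test the distance from the median gene. The members' log2 fold changes had a median 0.37 above it, and 70 of the 76 lay above the median gene. In 71 members both HKO libraries exceeded both controls, against 62.6% of all genes. The number called depended on the scaling: 60 rose without the mitochondrially encoded genes (24.4% of all genes) and 10 under median-of-ratios scaling (8.17%). The count on the deposited TPM fell to 0 without either control library or HKO replicate 2, and to 3 without HKO replicate 1. In the authors' deposited table for P10, 34 members were past the threshold as higher and 1, Rpl29, as lower. Of all 19182 genes with an adjusted p there, 2576 were higher and 2269 lower.

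The 7 that rose included 3 of the large subunit and 4 of the small subunit. Rpl5 rose from 12.6 and 11.7 TPM to 25.8 and 32.1 TPM (log2 fold change relative to the median gene 0.93 with SE 0.23, limma adjusted p = 0.008079). This value covers only the reads assigned to the gene itself: with its copies Rpl5 measured 312 and 309.8 TPM against 456 and 476 TPM and did not pass (0.33, limma adjusted p = 0.1629). Rpl12, in the stalk base, measured 7.69 and 8.31 TPM in controls and 15.4 and 19.02 TPM in HKO libraries (0.76, limma adjusted p = 0.008345). With copies it measured 328 and 338 TPM against 606 and 746 TPM and still passed (0.76, limma adjusted p = 0.03469). Rps12 also passed on both scales, at 10.7 and 11.2 TPM against 18.2 and 23.9 TPM on the gene (0.62, limma adjusted p = 0.02947) and 457 and 440 TPM against 826 and 1021 TPM with copies (0.78, limma adjusted p = 0.02757).

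The other 4 rises also passed with copies added. Rps27a, which is made as a fusion with ubiquitin, measured 309.8 and 322 TPM in controls and 545 and 675 TPM in the HKO (0.69, SE 0.26, limma adjusted p = 0.03817). Rplp2, the partner of Rplp1 in the stalk, went from 189 and 204 TPM to 318 and 430.0 TPM (0.66, limma adjusted p = 0.04567). Rps19, the gene most often mutated in Diamond-Blackfan anaemia, went from 165 and 174 TPM to 289 and 348 TPM (0.65, limma adjusted p = 0.04121). Rps23, part of the decoding centre, went from 76.04 and 83.9 TPM to 134 and 174 TPM (0.67, limma adjusted p = 0.03705). In each of the 4 both HKO libraries were above both controls.

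Against this direction, Rpl29 fell by 3.36 on the log2 scale (SE 0.28, limma adjusted p = 4.902e-05) and Rps13 fell by 2.61 (SE 0.70, limma adjusted p = 0.04991). Rps13 was at the limit: it lost its call without either control library and without HKO replicate 2, where it stood at -1.11, and also under both other scalings, with the smaller pseudocount, with no filter and in a fit of the P10 libraries alone. In the P10 HKO libraries 88.9% and 89.0% of the TPM of Rpl29 lay on copies, and 64.3% and 96.6% of that of Rps13. With copies added neither fell: Rpl29 stood at -0.25 (limma adjusted p = 0.996) and Rps13 at 0.52 (limma adjusted p = 0.07095). Rps7 followed the same course without a call, at -1.01 on the gene (limma adjusted p = 0.2264) and 0.59 with copies (limma adjusted p = 0.05366). In all, 6 members rose and none fell with copies summed, where 10.9% of all genes were higher, and 46 were higher and 0 lower at an unadjusted p under 0.05 (limma). The 76 values then ran from -0.25, that of Rpl29, to 0.78, and 74 lay above the median gene.

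Some members stayed near the median gene at P10. Rpl36 measured 444 and 425 TPM in controls against 462 and 422 TPM in the HKO, values that overlap (relative log2 fold change -0.23 with SE 0.25, limma adjusted p = 0.9598). Rpl11, which joins Rpl5 in the 5S particle and binds MDM2 when free, measured 287 and 288 TPM against 376 and 336 TPM (0.05, SE 0.29, limma adjusted p = 0.5026). The stalk proteins Rplp0, at 0.33, and Rplp1, at 0.46, did not pass either (limma adjusted p = 0.1856 and 0.09911). By subunit, the median was 0.33 over the large and 0.40 over the small subunit.

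Markers of hepatocytes and of other cells differed between the same P10 libraries. The 10 hepatocyte markers summed to 109600 to 114500 TPM in controls and to 61520 to 78010 TPM in the HKO, without overlap. Of them 2 fell (limma; 1.87% of all genes), and 7 were past the threshold as lower in the authors' deposited table. Summed erythroid markers stood at 231.4 to 388.4 TPM in controls and 488.5 to 2934 TPM in the HKO, summed Kupffer cell markers at 434.7 to 455.6 and 509.9 to 741.8 TPM, summed endothelial markers at 94.4 to 95.72 and 104.7 to 116.4 TPM, and 12 cell cycle genes at 157.1 to 167.2 and 244.1 to 276.6 TPM. Each of these 4 sums was higher without overlap, as were 62.6% of all single genes. The sums are not relative to the median gene, whose own log2 fold change was 0.25. Of single genes, 1 of 8 erythroid, 1 of 12 Kupffer cell and 5 of 12 cell cycle genes rose, where 10.8% of all genes did. Summed lymphoid markers stood at 7.768 to 10.29 TPM in controls and 5.883 to 8.018 TPM in the HKO, which overlap. Of these 0 were tested, and the authors' deposited table had 3 lower. No endothelial marker passed limma's test (0 of 10 at an unadjusted p under 0.05, and 0 in the authors' deposited table). The part of these markers in the higher ribosomal protein RNA was not tested.

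**Figure D2:**
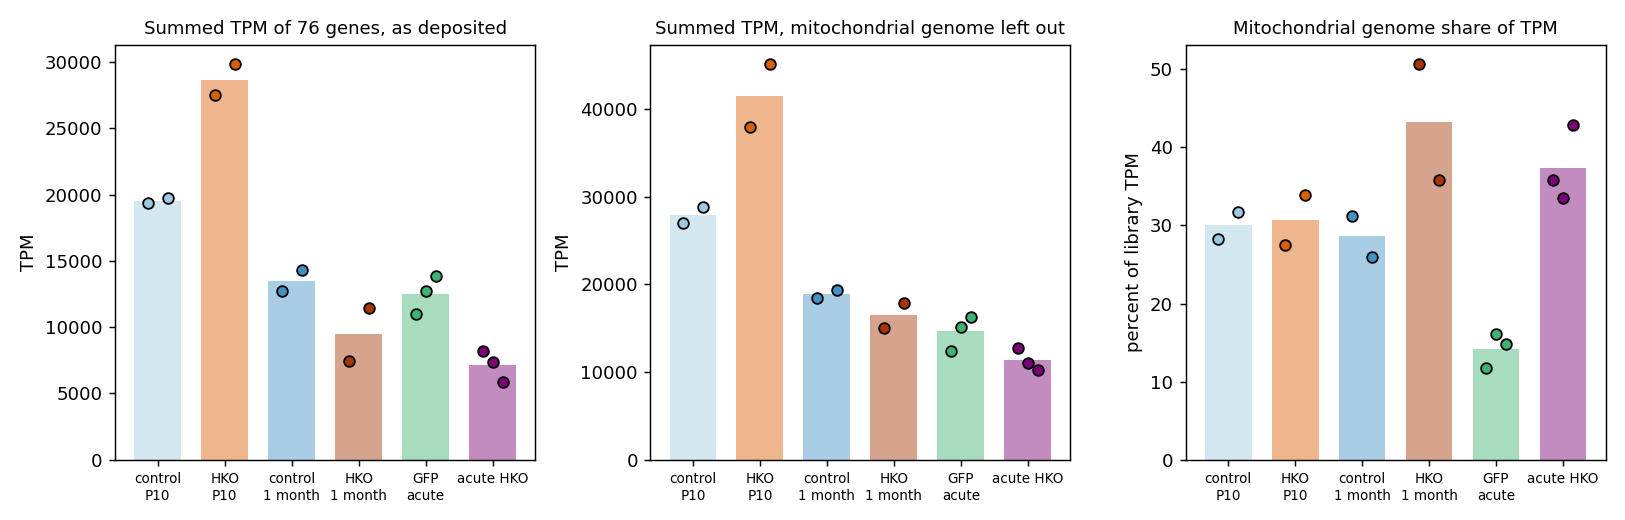
Summed TPM of the 76 genes in each group as deposited (left) and with mitochondrially encoded genes left out of the total (middle), and the mitochondrial share of TPM in percent (right); points are libraries and bars are group means. HKO P10 libraries lie above their controls in both scales, while the lower sums of the acute HKO overlap with GFP once mitochondrially encoded genes are left out.

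At 1 month the direction was the opposite. The summed TPM were 12703 and 14282 in controls and 7450 and 11474 with the knockout, which do not overlap. The HKO mean was 70.1% ± 21.9 of the control mean (n = 2 each). Replicate 1, with the lower sum, was also the library with 50.6% mitochondrially encoded RNA. With those genes left out of the total the sums were 18471 and 19310 against 15072 and 17860, a mean of 87.2% ± 10.8, and under median-of-ratios scaling the mean was 69.3% ± 4.6. Leaving out single libraries moved the deposited value between 55.2% and 85.0%.

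Single genes were rarely called at 1 month on the deposited TPM. One member, Rpl29, fell and none rose, with 1.99% of all genes lower. Before adjustment (p under 0.05), 1 was higher and 29 were lower, and in the authors' deposited table for 1 month 36 members were past the threshold, all lower. Of all 18177 genes with an adjusted p in that table, 824 were lower. The median member lay 0.54 below the median gene and 74 of 76 lay below it. In 59 members both HKO libraries were below both controls, against 15.6% of all genes, and without mitochondrially encoded genes this held for 43 members against 7.52%. Under median-of-ratios scaling 47 members fell, with 7.47% of all genes lower, and 1 rose. Without the mitochondrially encoded genes 3 fell (2.01% of all genes) and 1 rose. Without HKO replicate 2, 50 fell, where 5.67% of all genes were lower.

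Rpl29 fell by 1.29 against the median gene (limma adjusted p = 0.01678, SE 0.28), while with copies added the value was -0.60 (limma adjusted p = 0.2681). Rps13 (-1.995 on the gene) and Rps7 (-1.44) moved to -0.41 and -0.08 with copies, and none of these 4 values passed. Summed with copies, no member passed on the deposited scale (27 at an unadjusted p under 0.05, all lower), and 50 fell under median-of-ratios scaling, where 7.51% of all genes were lower. All 76 then lay below the median gene, between -0.81 and -0.08, where Rps7 was the highest.

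Rps6, Rpl36 and Rplp1 show the spread at 1 month. Rps6, the substrate of S6 kinase, measured 232 and 259 TPM in controls and 96.0 and 185 TPM in the HKO (relative log2 fold change -0.87 with SE 0.30, limma adjusted p = 0.1259). With copies added the HKO libraries measured 118.6 and 184.9 TPM, as replicate 1 held 22.5 TPM on the copy Rps6-ps4. Rpl36, near the median gene at P10, measured 333 TPM in both controls and 163 and 239.8 TPM in the HKO (-0.74, SE 0.25, limma adjusted p = 0.115). Rplp1 measured 379.9 and 409 TPM against 262 and 412 TPM, values that overlap. Replicate 1 was the lower HKO library in each of them.

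**Figure D3:**
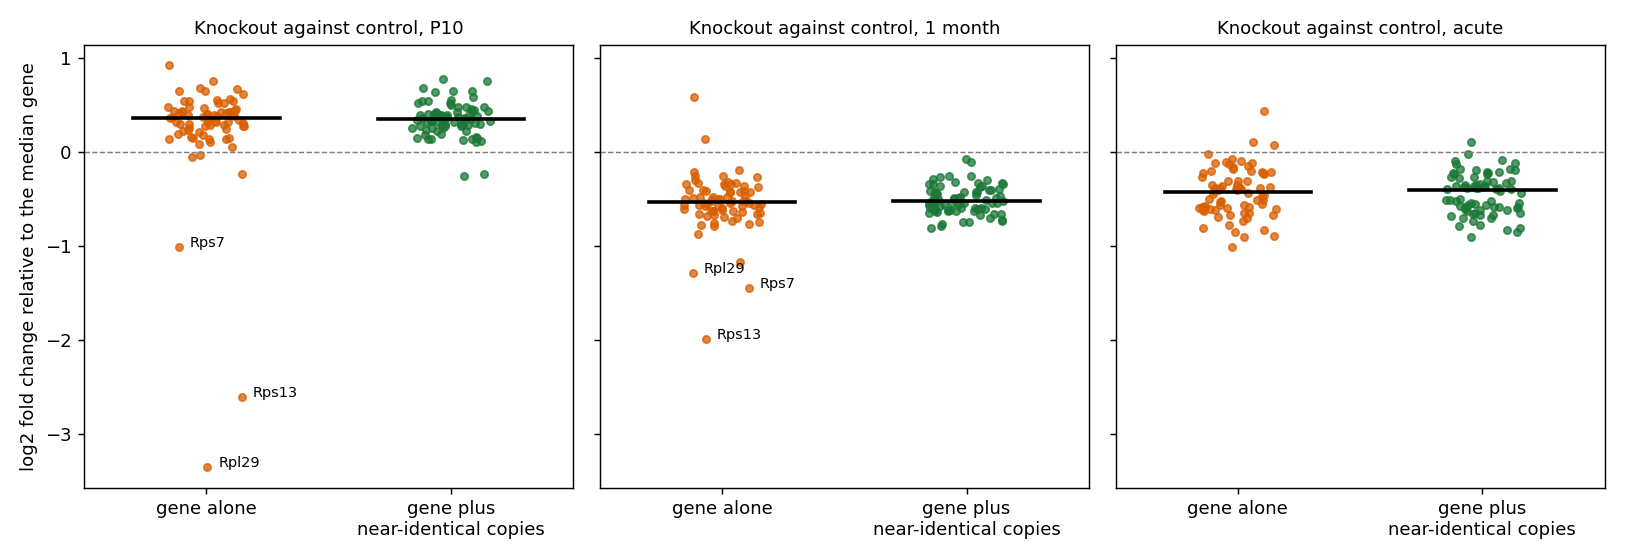
Log2 fold change of each of the 76 members relative to the median gene, knockout against control, at P10, 1 month and in the acute model, for the gene alone (orange) and for the gene plus its near-identical copies (green); each point is a member and the bar is the median. Medians lie above 0 at P10 and below 0 in the other comparisons, and at P10 and 1 month Rpl29, Rps13 and Rps7 lie closer to the median once copies are added.

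Markers differed in these libraries too. The 10 hepatocyte markers summed to 63780 to 82780 TPM in the 1-month controls and 51530 to 70210 TPM in the HKO, which overlap. Of them 1 fell (limma; 1.99% of all genes; 8 were lower at an unadjusted p under 0.05), and 7 were past the threshold as lower in the authors' deposited table. The 12 cell cycle genes summed to 2.603 to 5.209 TPM in the 1-month controls and 42.76 to 52.48 TPM in the HKO, and all 12 rose. The 12 Kupffer cell markers summed to 16.5 to 20.52 TPM and 56.76 to 157.7 TPM, and 9 rose. Of all genes 4.87% were called higher at 1 month, and 21.1% were higher without overlap. The 10 endothelial markers summed to 8.746 to 10.84 TPM and 11.24 to 35.33 TPM, without overlap. None of them passed limma's test, while 6 were higher at an unadjusted p under 0.05 and 1 in the authors' deposited table. The part of these markers in the lower ribosomal protein RNA was not tested.

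Whether the knockout effect differed between the ages was tested directly. On the deposited TPM the difference passed for 1 member, Rpl29, whose effect was less negative at 1 month than at P10 by 2.07 (SE 0.39, limma adjusted p = 0.03414). It passed as higher for 1.01% of all genes and as lower for 1.8%. As lower it passed for 0 members. At an unadjusted p under 0.05 (limma), 67 members had a lower effect at 1 month and 1 a higher one. The share of all genes at this limit was not counted, and the median gene's own difference was -0.25. The median member's difference was -0.83 relative to the median gene. Under median-of-ratios scaling the difference passed as lower for 41 members (2.59% of all genes), and with copies summed on that scale for 46 (2.56%). Without HKO 1-month replicate 2 it passed as lower for 69 members and 12.2% of all genes. The higher value of Rpl29 went to -0.35 with copies. Both effects were estimated in the same fit of 8 libraries, in which they share no control library.

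In the acute model ribosomal protein RNA was lower in knockouts of adult animals. The sums were 10987, 12708 and 13888 TPM with GFP and 8187, 7346 and 5838 TPM in the acute HKO. The acute HKO mean was 56.9% ± 11.6 of GFP (n = 3 each) with no overlap. Without mitochondrially encoded genes the sums were 12453, 15154 and 16307 against 12748, 11043 and 10217, a mean of 77.4% ± 13.7. The highest acute HKO library then exceeded the lowest GFP library. Under median-of-ratios scaling the mean was 77.4% ± 9.5 without overlap.

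On the deposited TPM 65 of the 76 members fell and none rose (limma), where 34.8% of all genes were lower. With an unadjusted p under 0.05 as the limit, 71 were lower and 0 higher. Without the mitochondrially encoded genes 12 fell (7.84% of all genes), and under median-of-ratios scaling 38 fell (18.8%) and 1 rose. The authors' deposited table for the acute comparison held 49 members past the threshold, all lower. Of all 21442 genes with an adjusted p in that table, 3457 were lower. In 71 members all 3 acute HKO libraries were below all 3 GFP libraries (47.1% of all genes), and 36 without the mitochondrially encoded genes (17.2%). The median member lay 0.43 below the median gene, with 0.46 below for the large and 0.39 below for the small subunit. With copies summed 70 fell (35.2% of all genes), and 75 of 76 lay below the median gene, between -0.90 and 0.11.

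The 6 largest falls were 5 genes of the large subunit and 1 of the small. Rpl10 (chrX:74270812-74273135, plus strand), which joins the large subunit late, near the peptidyl transferase centre, measured 76.3, 126 and 182 TPM in the GFP libraries and 55.1, 45.9 and 38.7 TPM in the acute HKO (relative log2 fold change -1.01 with SE 0.26, limma adjusted p = 0.0007885). Rpl36 (chr17:56613416-56614243, plus strand) measured 338, 335 and 373 TPM against 152, 157 and 125 TPM (-0.91, SE 0.20, limma adjusted p = 0.000156). Rps28, at the exit of the mRNA channel, measured 208, 201 and 247 TPM against 105, 97.96 and 72.2 TPM (-0.89, limma adjusted p = 0.0002648). No acute HKO library reached a GFP library in any of these.

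Rpl24, which forms a bridge between the subunits, measured 197, 232 and 251 TPM in the GFP libraries and 107, 109.9 and 76.7 TPM in the acute HKO (-0.85, limma adjusted p = 0.000372). Rpl13a, known also for a role in translational silencing outside the ribosome, measured 171, 201 and 212 TPM against 93.1, 86.8 and 74.3 TPM (-0.83, limma adjusted p = 0.0002734). Rpl6 measured 112, 133 and 139.7 TPM against 62.0, 63.3 and 44.98 TPM (-0.81, limma adjusted p = 0.0004056). With copies added Rpl10 stood at -0.78 (limma adjusted p = 0.0006105) and Rps28, with 36.09% of its TPM on copies, at -0.34 (limma adjusted p = 0.01123). All 6 genes were also lower without the mitochondrially encoded genes (limma adjusted p from 0.005058 for Rpl36 to 0.03378 for Rpl10) and under median-of-ratios scaling.

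Of the 11 members that did not pass in the acute model, 8 stood between -0.16 and -0.02. Rps19 measured 86.9, 102 and 109.6 TPM in the GFP libraries and 84.5, 73.6 and 70.5 TPM in the acute HKO (relative log2 fold change -0.02 with SE 0.20, limma adjusted p = 0.1275). Rpl22 measured 102, 107 and 119 TPM against 106, 87.2 and 82.8 TPM, values that overlap (0.11, limma adjusted p = 0.3068). Rps27, whose reads switched between gene and copy within both groups, stood at 0.08 with an SE of 1.56 (limma adjusted p = 0.8939). Rpl5 measured 6.33, 9.60 and 10.7 TPM against 9.76, 10.03 and 8.01 TPM on the gene (0.44, limma adjusted p = 0.7826). It rose under median-of-ratios scaling (0.48, limma adjusted p = 0.01314) and fell with copies added, from 161, 194 and 207 TPM to 112, 109.7 and 82.2 TPM (-0.52, limma adjusted p = 0.003006). The direction of Rpl5 therefore rests on how its reads are divided.

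Rpl29, first among the changes at P10, was called lower here (limma adjusted p = 0.02955). That p-value tests its fold change against 0, and relative to the median gene Rpl29 stood at only -0.20. The difference between the acute and the 1-month effect passed for none of the members on the deposited TPM, while it passed as higher for 1.01% and as lower for 5.82% of all genes; at an unadjusted p under 0.05, 1 member was higher and 3 were lower. It passed as higher for Rpl29 without the mitochondrially encoded genes and for Rpl29 and Rps7 under median-of-ratios scaling, and for no member with copies summed (0 higher and 1 lower at an unadjusted p under 0.05).

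Markers moved in the acute model as well. The hepatocyte markers summed to 41440 to 54070 TPM with GFP and 32010 to 49630 TPM in the acute HKO, which overlap. Of the 10, 6 fell (limma; 34.8% of all genes), and the authors' deposited table had 4 lower and 1 higher. Kupffer cell markers summed to 5.637 to 14.41 TPM with GFP and 8.207 to 52.86 TPM in the acute HKO, which overlap, and endothelial markers to 4.362 to 12.2 and 9.486 to 21.6 TPM, which overlap too. Of 7 Kupffer cell markers tested 6 rose (5.93% of all genes), and 0 of 8 did under median-of-ratios scaling (20.1%), while the authors' deposited table had all 12 higher. No endothelial marker of the 5 tested passed limma's test (1 higher at an unadjusted p under 0.05), and the authors' deposited table had 9 higher. The 12 cell cycle genes summed to 1.881 to 2.58 TPM with GFP and 2.697 to 3.515 TPM in the acute HKO, low but without overlap. None reached the minimum for testing, and 6 were higher in the authors' deposited table. Erythroid markers summed to 30.83 to 48.34 TPM with GFP and 8.906 to 12.79 TPM in the acute HKO, without overlap. Of all single genes 47.1% were lower without overlap. Only 1 erythroid marker reached the minimum for testing, lower at an unadjusted p under 0.05 (limma). The authors' deposited table had 1 higher and 1 lower. The part of these markers in the lower ribosomal protein RNA was not tested.

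Age in the controls gives the course without the knockout. The sum fell from a mean of 19549 ± 227 TPM at P10 to 13493 ± 1117 TPM at 1 month (SD, n = 2 each), or to 69.0% ± 5.8, and to 67.6% ± 3.8 without mitochondrially encoded genes. Under median-of-ratios scaling it was 100.4% ± 0.6 and the libraries overlapped. In the gene test 14 members fell and none rose (limma; 30 lower and 0 higher at an unadjusted p under 0.05), where 38.2% of all genes were lower, and without the mitochondrially encoded genes 54 fell against 53.2%. Under median-of-ratios scaling 4 fell and 3 rose, where 23.6% of all genes were lower and 23.9% higher. The largest falls were those of Rpl3, which lies near the peptidyl transferase centre (relative log2 fold change -0.73 with SE 0.26; limma adjusted p = 0.00393), and Rps15a (-0.71, SE 0.25, limma adjusted p = 0.003899). Both fell under median-of-ratios scaling as well. The median member lay 0.10 below the median gene, and 49 of the 76 lay below it. Marker sums were lower at 1 month, without overlap, as were 68.4% of all genes. Hepatocyte markers stood at 63780 to 82780 against 109600 to 114500 TPM and Kupffer cell markers at 16.5 to 20.52 against 434.7 to 455.6 TPM. Erythroid markers stood at 13.46 to 15.67 against 231.4 to 388.4 TPM and endothelial ones at 8.746 to 10.84 against 94.4 to 95.72 TPM. Cell cycle genes stood at 2.603 to 5.209 against 157.1 to 167.2 TPM. The part of these markers in the change was not tested.

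Transcript usage, the division of a gene's TPM among its annotated transcripts, could be tested for 33 to 36 members with at least 2 transcripts above 1 TPM and 5% of the gene. In the acute model 12 of 33 changed (limma diffSplice, adjusted p under 0.05 and a change of at least 10 percentage points), where 35.5% of all genes tested changed. At P10 1 of 36 changed against 0.586% of all genes, and at 1 month 0 of 36 changed against 0.234%. At an unadjusted p under 0.05 there were 17 members in the acute model, 3 at P10 and 5 at 1 month. The acute share of members called is near that of all genes.

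Rpl28, a large-subunit protein whose start window is shown above, had the largest shift among the members called in the acute model. Copies held 62.33% of the TPM of Rpl28 and its copies together over the 14 libraries. The shares below divide only the TPM assigned to the gene Rpl28, a split that is uncertain. Its long coding transcript Rpl28-201 (1106 bases) held 87.3%, 90.3% and 92.7% of the gene's TPM with GFP and 58.6%, 66.7% and 50.2% in the acute HKO. The short coding transcript Rpl28-203 (312 bases) held 6.7%, 3.0% and 0.2% against 33.6%, 24.7% and 43.0% (limma diffSplice adjusted p = 0.0001087). The 8 developmental libraries, knockout or not, all held 36.0% to 52.8% of Rpl28-203. The 3 GFP libraries were thus below all others in the share of Rpl28-203.

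Rpl10, Rps12 and Rps7 had the next largest shifts among those called. Copies held 70.78% for Rpl10 and 97.08% for Rps12 over the 14 libraries, and 79.8% to 84.0% for Rps7 in the acute libraries. Their shares too divide only the TPM assigned to the gene. Rps24 shifted by 18.3 percentage points, more than Rps7, and did not pass (limma diffSplice adjusted p = 0.5949). Rpl10-211 held 15.8%, 34.0% and 51.6% of Rpl10 with GFP and 3.5%, 5.1% and 5.7% in the acute HKO (limma diffSplice adjusted p = 0.001592), and this transcript carried 12.05, 42.7 and 93.8 TPM of the gene's GFP level, against 1.94 to 2.35 TPM. The fall of Rpl10 given above thus lay in part on a transcript that varied widely among the GFP libraries. Rps12-204, annotated for nonsense-mediated decay, held 61.7%, 41.2% and 47.9% of Rps12 against 36.7%, 30.7% and 37.0% (limma diffSplice adjusted p = 0.01663). It amounted to 3.05 to 3.35 TPM and 1.41 to 1.63 TPM, little beside the copies of Rps12. Rps7-204, annotated as a retained intron, held 26.7%, 21.4% and 24.1% of Rps7 against 0.0%, 12.1% and 10.9% (limma diffSplice adjusted p = 0.0002723).

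Rps19 is added here after its values had been seen, since its groups were tight. Rps19-205, annotated for nonsense-mediated decay, held 17.2%, 17.9% and 17.8% of the gene with GFP and 2.4%, 4.9% and 5.5% in the acute HKO (limma diffSplice adjusted p = 1.228e-06), a fall from 14.9 to 19.5 TPM to between 2.04 and 3.87 TPM. The coding transcript Rps19-202 went from 9.25, 9.28 and 12.2 TPM to 14.6, 15.9 and 15.5 TPM, and the main one, Rps19-203, measured 56.4 to 69.2 TPM and 44.1 to 62.5 TPM, which overlap. At P10 the single call was Rpl29 (limma diffSplice adjusted p = 0.005985): Rpl29-201 held 19.1% and 18.9% in the controls and 0.0% in both HKO libraries. These shares too divide only the TPM assigned to the gene, which was 22.7 and 21.4 TPM in the HKO. Copies held 88.9% and 89.0% there, so the split is uncertain. Rpl29-201 was also listed at 0 in all 6 acute libraries, and it held 21.3% to 25.6% in the 4 libraries of 1 month, HKO included.

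**Figure D4:**
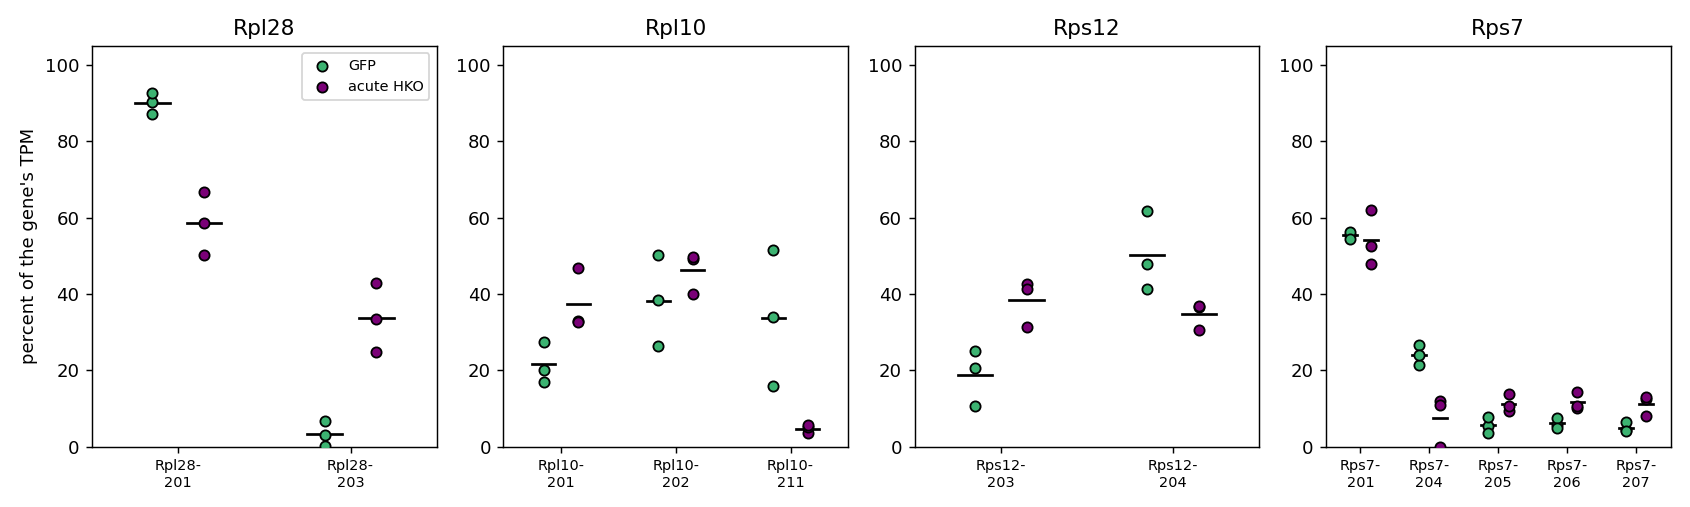
Share of each tested transcript in its gene's TPM, in percent, for Rpl28, Rpl10, Rps12 and Rps7 in the 3 GFP (green) and 3 acute HKO (purple) libraries; points are libraries and lines are group means. Rpl28-203, Rpl10-211 and Rps7-204 separate the groups, while Rpl10-211 spreads from 15.8% to 51.6% among the GFP libraries.

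Genes that work with the ribosomal proteins were compared on the same scale. Their counts are read against the share of all genes called on the deposited TPM, which was 10.8% higher at P10, 4.87% higher and 1.99% lower at 1 month, and 5.93% higher and 34.8% lower in the acute model. Under median-of-ratios scaling 8.17% were higher at P10, and 20.1% were higher and 18.8% lower in the acute model. Of 10 further ribosomal proteins and paralogs outside the naming rule, none passed limma's test at P10 or 1 month and 4 of 9 fell in the acute model. Before adjustment (p under 0.05), 4 were higher at P10 and 2 lower at 1 month, and the authors' deposited tables had 2 higher at P10 and 1 lower at 1 month past the threshold. The acute falls include Rps3a1, a small-subunit protein (-0.73, SE 0.21, limma adjusted p = 0.0008524). Of 19 elongation factors and related pyrimidine-tract mRNAs, none passed limma's test at P10 or 1 month and 17 fell in the acute model (34.8% of all genes), 11 under median-of-ratios scaling (18.8%). At an unadjusted p under 0.05, 6 were higher at P10 and 4 lower at 1 month, and the authors' deposited tables had 4 higher at P10 and 4 lower at 1 month. Rack1, a scaffold on the small subunit, fell most clearly, from 85.3, 105.0 and 103.6 TPM to 37.3, 42.03 and 26.2 TPM (-1.11, SE 0.21, limma adjusted p = 7.327e-05), and Eef2 (-0.84), which moves the ribosome along, and Eef1g (-0.76) fell too. Relative to the median gene, the list's median was 0.25 at P10, -0.40 at 1 month and -0.44 for the acute knockout.

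Of 30 initiation factors 1 rose at P10 (10.8% of all genes). There 16 were higher and 0 lower at an unadjusted p under 0.05 (limma), and 12 higher and 0 lower in the authors' deposited table. None passed limma's test at 1 month (1 lower at an unadjusted p under 0.05, and 1 lower in the authors' deposited table). In the acute model 23 fell (34.8% of all genes), 11 under median-of-ratios scaling (18.8%). Eif6, which keeps the large subunit from joining too early, rose at P10 from 20.1 TPM in both controls to 46.8 and 50.6 TPM (0.98, SE 0.27, limma adjusted p = 0.0152). Eif2b3, a subunit of the exchange factor for eIF2, fell from 4.74, 6.97 and 6.95 TPM to 1.20, 1.99 and 0.914 TPM in the acute model (-1.26, SE 0.22, limma adjusted p = 3.915e-05). The medians were 0.32, -0.14 and -0.32.

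Nucleolar factors process ribosomal RNA and assemble the subunits. Of 75 ribosome biogenesis factors 21 rose at P10 (10.8% of all genes), and 21 rose under median-of-ratios scaling as well (8.17%). Gar1, of the pseudouridylation complex, went from 12.0 and 12.9 TPM to 30.5 and 42.0 TPM (1.20, SE 0.24, limma adjusted p = 0.002884), and its partner Nhp2 rose by 0.85 (limma adjusted p = 0.01021). At 1 month 1 rose, Rbm28. In the acute model 40 fell (34.8% of all genes) and 1 rose. Under median-of-ratios scaling 15 fell, a share near the 18.8% of all genes, and 6 rose. Rbm28, a factor of large-subunit assembly, was the one that rose, from 4.01, 6.85 and 6.64 TPM to 21.5, 15.9 and 14.5 TPM (1.80, SE 0.22, limma adjusted p = 0.0001353), while Gnl3 (-0.72) and Nop14 (-0.66) fell. The medians of the list were 0.32, 0.02 and -0.19, so that at 1 month assembly factors stayed at the median gene while the ribosomal proteins lay 0.54 below it; the difference between the lists was not tested.

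RNA polymerase I, which makes ribosomal RNA, had 2 of 14 genes higher at P10 (10.8% of all genes), none called by limma at 1 month (0 at an unadjusted p under 0.05, and 0 in the authors' deposited table) and 6 lower in the acute model (34.8%), among them its initiation factor Rrn3 (-0.91, SE 0.21, limma adjusted p = 0.0002888). Both counts are near the share of all genes. Of 20 regulators of ribosomal protein output 2 rose at P10 (10.8% of all genes) and 1 at 1 month (4.87%), and 7 fell in the acute model (34.8%), again near the share of all genes. The authors' deposited tables had 2 of them higher and 2 lower at P10, 0 higher and 1 lower at 1 month, where Myc did not pass, and 1 higher and 5 lower in the acute model. Myc, a transcription factor of growth genes, rose at both developmental ages, from 2.33 and 2.68 TPM to 8.93 and 13.2 TPM at P10 (1.51, SE 0.31, limma adjusted p = 0.00441) and from 0.398 and 1.99 TPM to 4.89 and 5.64 TPM at 1 month (1.61, limma adjusted p = 0.009261). A link between Myc and the ribosomal protein RNA was not tested. The 78 proteins of the mitochondrial ribosome, a separate machine, had 2 higher at P10 (10.8% of all genes), none called by limma at 1 month (2 higher and 1 lower at an unadjusted p under 0.05), and 1 higher and 11 lower in the acute model (5.93% and 34.8%). The authors' deposited tables had 3 higher and 7 lower at P10, 1 lower at 1 month, and 16 higher and 7 lower in the acute model, so the balance at P10 and in the acute model was the opposite of that on the deposited TPM. Under median-of-ratios scaling 4 rose and 4 fell at P10, and 32 rose and 6 fell in the acute model (20.1% and 18.8% of all genes). Their acute median on the deposited TPM was 0.16 above the median gene, where that of the cytosolic proteins was 0.43 below it.

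**Figure D5:**
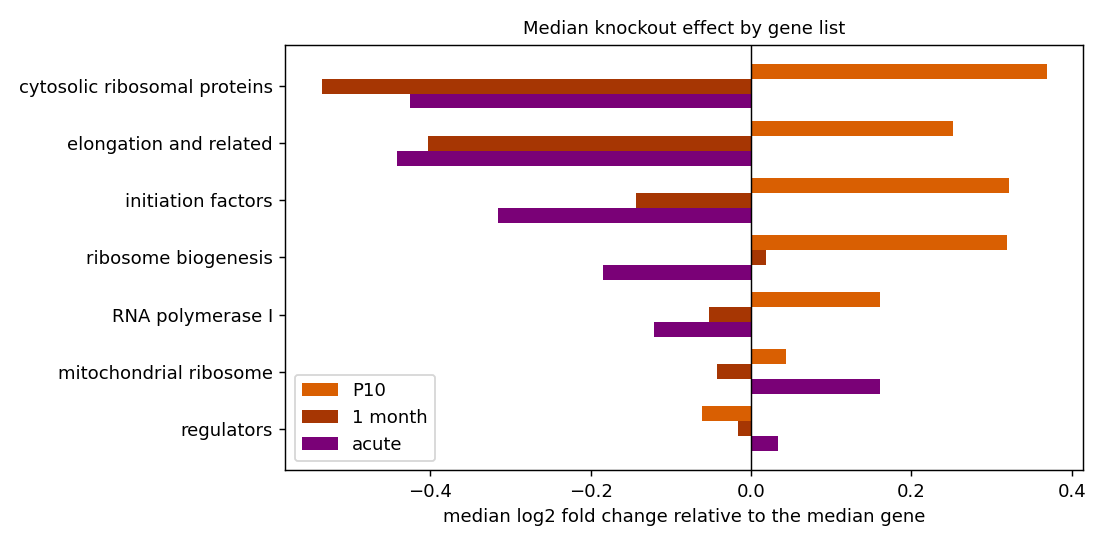
Median log2 fold change relative to the median gene over the members of each gene list, knockout against control, at P10, 1 month and in the acute model; each bar is a list's median and has no error bar. Cytosolic ribosomal proteins and elongation factors lie above 0 at P10 and below 0 in the other comparisons, while the mitochondrial ribosome lies above 0 in the acute model.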

How the data were processed

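The authors deposited transcript TPM for 14 libraries; per the submitters' processing notes bcl2fastq 2.17.1.14, kallisto 0.46.0 and DESeq2 were used with GRCm38. In the authors' deposited tables, per the file headers, each gene has a mean normalized count (a signal), a log2 fold change, a test score and p-values. Gene TPM were sums over transcripts and were tested as log2(TPM + 1) with limma 3.58.1 in R 4.3.3 (trend, two-sided, Benjamini-Hochberg over all genes averaging at least 1 TPM). P10 and 1 month shared a fit. Usage was tested with diffSplice. Copies were found with BLAST+ 2.17.0 in the GENCODE M21 transcripts, which 72 of 76 members matched by versioned ID. Scripts were tested on simulated data. TPM keep no depth, so no count model was fitted. Members, lists and tests were chosen with earlier results of these data known. Members are named when extreme in level, among the 6 largest called changes each way, called against the others, or among the 4 largest usage shifts; of each list up to 3 with the smallest p. Alternatives were the scaling, pseudocount, filter, single libraries, replicate block and copies.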

Additional observations from a re-analysis of the deposited data

Results flagged for a closer look

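The effect of the knockout on Rpl29 differed between the ages in the test of the difference itself, higher at 1 month than at P10 by 2.07 on the log2 scale relative to the median gene. With the copies of Rpl29 added the value was -0.35 and did not pass.

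The summed TPM of the 76 genes moved in opposite directions: each knockout library lay above the controls at P10 and below them at 1 month. At 1 month the mean was 70.1% of control as deposited and 87.2% without mitochondrially encoded genes. The difference between the ages was not tested on the sums.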

How the results depend on the processing

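Counts of members moved with the scaling, the replicate block, the libraries fitted together and single libraries. Without mitochondrially encoded genes 60 rose and 1 fell at P10, 1 rose and 3 fell at 1 month, 12 fell in the acute model, 54 fell with age, 5 were lower in the difference between the ages, and 1 was higher in that between the acute model and 1 month. Under median-of-ratios scaling 1 fell at P10, 1 rose and 47 fell at 1 month, 1 rose and 38 fell in the acute model, 3 rose and 4 fell with age, 41 were lower in the difference between the ages and 2 higher in that between acute and 1 month. The sum was then 120.4% at P10 and 77.4% in the acute model, and 77.4% there without mitochondrially encoded genes. A pseudocount of 0.1 gave 1 lower at P10 and 2 lower at 1 month. With no filter 2 rose and 1 fell at P10, 0 fell at 1 month, 6 fell with age, and 0 were higher in the difference between the ages. On coding transcripts 2 fell at 1 month.

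With copies summed (chosen after seeing the data) 0 fell at P10 and 0 at 1 month, and 0 were higher in the difference between the ages. Adding median-of-ratios scaling gave 14 higher and 0 lower at P10, 50 lower at 1 month, 37 lower in the acute model, 4 higher and 4 lower with age, and 0 higher and 46 lower in the difference between the ages. Copies without mitochondrially encoded genes gave 65 higher and 0 lower, 2 lower, 13 lower, 61 lower, and 0 higher and 10 lower, in the same order. Of all 12655 genes, 3104 were higher at P10, 253 lower at 1 month, 6755 lower with age and 196 lower in that difference on that scale. In the acute model 844 of 10614 were lower. With copies and median-of-ratios scaling, 949 of 11502 genes were higher at P10 and 864 lower at 1 month. There 2757 were higher and 2718 lower with age, 295 were lower in the difference between the ages, and 1873 of 9911 were lower in the acute model. On these 3 settings Rps13 at P10 went to 0.52, 0.48 and 0.52, and Rpl29 in the difference between the ages to -0.35, -0.31 and -0.29. A planned fit of only the 4 libraries of an age gave 68 higher and 1 lower at P10 and 4 lower at 1 month. Of all genes in this fit, 4415 of 12327 were higher and 592 lower at P10, and 174 of 10341 were lower at 1 month.

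Replicate numbers share only a number: correlations of same-numbered deviations were 0.007 at P10, 0.283 at 1 month and -0.039, 0.270 and 0.184 in the acute model, and GFP replicate 1 correlated best with acute HKO replicate 3. With a replicate block 52 rose at P10, 1 rose and 28 fell at 1 month, 60 were lower in the difference between the ages, and usage gave 2 at P10 and 1 at 1 month. Of all 11736 genes, 2462 rose at P10, 592 fell at 1 month and 724 were lower in that difference. The change with age could not be fitted with this block, which lies within an age.

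Leaving out single libraries gave 0 to 3 higher and 1 to 2 lower at P10, 0 higher and 0 to 50 lower at 1 month, 0 to 1 higher and 49 to 70 lower in the acute model, 0 higher and 1 to 6 lower with age, 0 to 1 higher and 0 to 69 lower in the difference between the ages, and 0 to 1 higher and 0 to 7 lower in that between acute and 1 month, the 7 without HKO 1-month replicate 1 and the 50 and 69 without replicate 2. Usage calls ran from 9 to 11 in the acute model and were 0 at P10 and at 1 month. The 70 members lower in the acute model came without GFP replicate 1, where 4686 of all 10026 genes were lower. The 49 came without GFP replicate 2, where 2250 of all 9922 genes were lower. Sums ran from 140.8% to 152.5% at P10, 55.2% to 85.0% at 1 month and 52.6% to 62.0% in the acute model. Over the named members' alternatives, 181 kept direction and side of the threshold, 68 lost the call and 6 reversed. The causes were not tested. Depth is unknown.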
